A study of Mus musculus with 16 samples.

Results

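The genes described here are 40 genes of DNA damage signalling and repair, chosen by name among the 24411 genes of the deposited count table. They comprise 4 signalling kinases, 6 genes of the chromatin response to breaks, 4 genes of break ends and resection, 8 of homologous recombination, 7 of classical end joining, 6 of alternative end joining and single strand breaks, and 5 of crosslink repair and nucleases. All 40 names were found in the table. Their RNA was measured in 16 libraries of muscle stem cells (MuSCs) sorted from mouse skeletal muscle, 4 in each of 4 groups: control uninjured (genotype Wildtype in the labels), TRF2 knockout uninjured, control at 3 days post-injury (3 DPI), and TRF2 knockout at 3 DPI. The comparisons ask what loss of TRF2 and what injury did to these genes. Injury was 10 µl of notexin, a snake venom toxin that destroys muscle fibers, injected into the tibialis anterior muscle. In the knockout, called TRF2MuSC-cKO below, a tamoxifen-inducible Cre driven from the Pax7 gene deleted the floxed gene for TRF2 in cells that expressed Pax7 when young adult mice received tamoxifen. All mice were on a C57BL/6 background. The labels do not say whether the controls carried the Cre allele. The age at sorting is likewise not in the labels.

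TRF2 is a subunit of shelterin, the complex that covers telomeres and keeps them from being read as broken DNA. A telomere without TRF2 is known to activate the kinase ATM and to be joined to other ends by classical end joining, whereas single-stranded telomeric DNA is guarded against the kinase ATR. Both kinases signal mainly by phosphorylating proteins that are already present: histone H2AX, MDC1, the ubiquitin ligases RNF8 and RNF168 and the p53-binding protein encoded by Trp53bp1 gather at a break, and p53 then acts on transcription. Resting MuSCs are outside the cell cycle and rely largely on end joining, and homologous recombination needs the sister copy made in S phase.

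Terf2, the gene for TRF2, was read first because it checks the labels. In the 4 control uninjured libraries it stood at 71.5, 94.5, 66.3 and 73.1 CPM (counts scaled by library size and TMM factors, over all 16 libraries), and in the TRF2MuSC-cKO uninjured libraries at 49.7, 46.7, 58.7 and 27.2. All 4 knockout libraries were below all 4 controls. The fitted log2 fold change was -0.62 (SE 0.27, edgeR quasi-likelihood adjusted p = 0.199), and the exact two-sided permutation test gave p = 0.0286, the smallest that 4 against 4 libraries allow. At 3 DPI the controls had 35.5, 48.6, 48.2 and 42.8 CPM and the libraries labelled TRF2 knockout 52.6, 21.9, 66.9 and 89.7. Terf2 was therefore not lower as a group in the injured libraries labelled knockout (log2 fold change 0.44, SE 0.42, adjusted p = 0.755), and Terf2 does not check the labels of the 3 DPI groups. The table holds whole-gene counts, and a transcript that has lost only its floxed exons would still be counted.

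The libraries were shallow, with 620506 to 1351130 counts each, of which the 40 genes took 1164 to 2140 counts (0.130 to 0.215%). One library, replicate 3 of the 3 DPI group labelled knockout, had 15387 genes with a count where the others had at least 19996, and 9 of the 40 genes were at 0 in it. Pax7, the defining transcription factor of MuSCs, was present in every library, at 769 to 1487 CPM in control uninjured MuSCs, 694 to 882 CPM in TRF2MuSC-cKO uninjured MuSCs, 128 to 184 CPM in control 3 DPI libraries and 24.5 to 131 CPM in 3 DPI libraries labelled knockout. Summed over 10 MuSC markers the level was 3394 to 5531 CPM in control uninjured libraries, 2063 to 2938 in TRF2MuSC-cKO uninjured, 1044 to 1519 in control 3 DPI and 491 to 680 in 3 DPI libraries labelled knockout. The estimate for libraries labelled knockout against control was below 0 for all 10 markers in both genotype comparisons. In uninjured MuSCs 7 were called lower (median log2 fold change -0.91), and at 3 DPI 0 were called (median -0.75). Summed over 8 immune markers it was 54.6 to 114, 103 to 176, 4040 to 5123 and 1643 to 4712 CPM in the same order. Lyz2 of macrophages and neutrophils was at up to 9.90 CPM in control uninjured libraries and at 2131 to 2763 CPM in control 3 DPI libraries, where it was the highest of the immune list, and Ptprc, which encodes the CD45 protein gated against in the sort, reached 186 to 285 CPM there. Fewer cells of a type and less RNA per cell cannot be told apart in bulk RNA, and the part of the cell mixture in the results below was not tested. The sample descriptions carry a code of unstated meaning. No code occurs in both uninjured groups, so code and genotype cannot be told apart there, and in each other comparison of 2 groups a single code is in both.

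**Figure D1:**
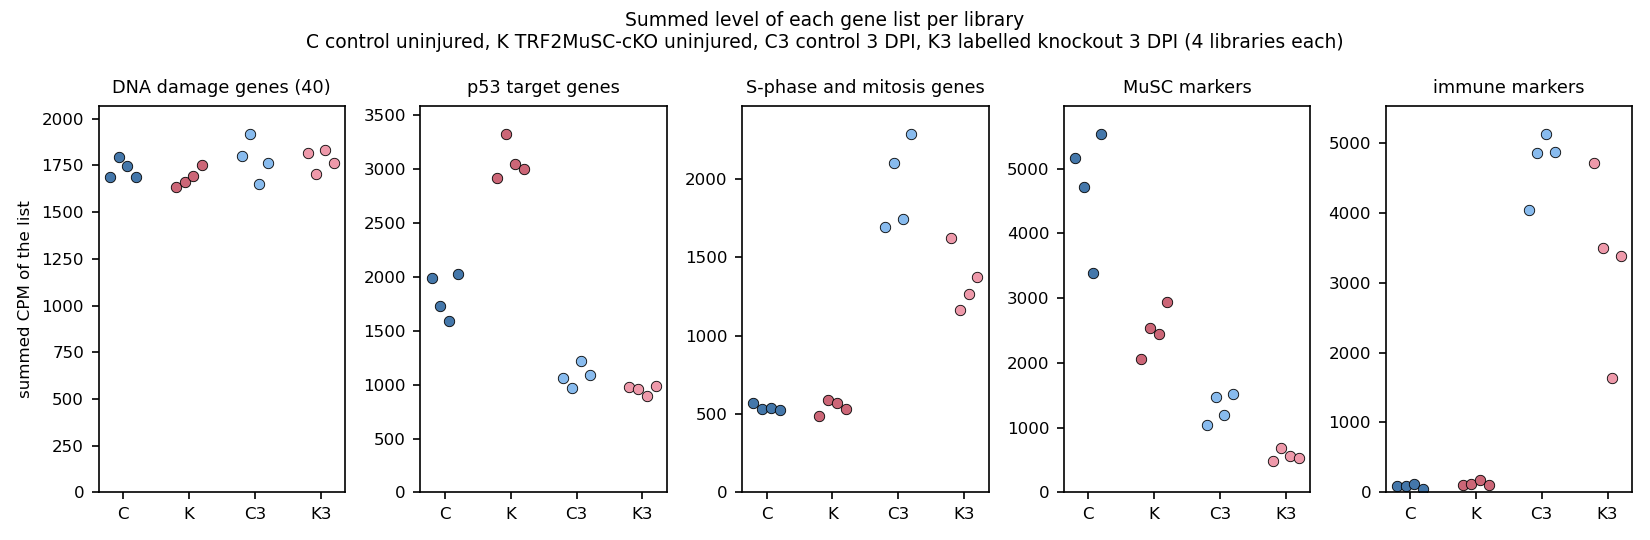
Summed CPM of 5 gene lists in each of the 16 libraries (linear axes from 0, 4 points a group). The 40 DNA damage genes lie between 1634 and 1917 CPM in all libraries, while p53 targets are highest in TRF2MuSC-cKO uninjured MuSCs and the S-phase and mitosis genes and immune markers are highest at 3 DPI.

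The summed level of the 40 genes overlapped among all groups once libraries were scaled, and their share of the raw counts overlapped between most groups. The sum was 1688 to 1795 CPM in control uninjured, 1634 to 1754 in TRF2MuSC-cKO uninjured, 1649 to 1917 in control 3 DPI and 1703 to 1834 CPM in the 3 DPI libraries labelled knockout. As a percentage of all counts the members took 0.1301 to 0.1652 in control uninjured and 0.1638 to 0.1796 in TRF2MuSC-cKO uninjured libraries. At 3 DPI they took 0.1541 to 0.1876 in control libraries and 0.1799 to 0.2152 in those labelled knockout. This last group lay above both uninjured groups, narrowly so for TRF2MuSC-cKO, and overlapped control 3 DPI. Among the role groups, 2 had sums that did not overlap between uninjured and 3 DPI control libraries. Of all single genes, 24.5% did not overlap in this comparison. The chromatin response genes went from 449 to 526 CPM down to 379 to 391 CPM, and the genes of alternative end joining and single strand breaks from 271 to 348 CPM up to 352 to 507 CPM. A sum gives most weight to the long and abundant genes, so the single genes are described next.

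Corrected for transcript length, the 40 genes spanned a moderate range of levels in control uninjured MuSCs. Xrcc1, the scaffold of single strand break repair, was highest at a length-corrected abundance of 82.0 ± 34.3 on the TPM scale (SD, n = 4). It stood at the 93.3 percentile of all 24411 genes, those at 0 included. Rnf8, Parp1, which makes poly(ADP-ribose) at nicks and breaks, Xrcc6, the smaller Ku subunit, and Rif1, which shields ends from resection, followed at 42.0, 40.6, 39.8 and 38.1. Atm and Atr lay in the middle of the list, at 22.4 ± 3.06 and 18.3 ± 4.78. At the bottom were Bard1 at 7.30 ± 3.82, Rad54l, which drives strand exchange in recombination, at 5.72 ± 2.91 and Chek1, the kinase below ATR, at 5.61 ± 4.04 (18.1 percentile). The step from Xrcc1 to Rnf8 was 1.16 times the larger SD of the pair. No other neighbours in this order differed by more than 0.48 times the larger SD.

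**Figure D2:**
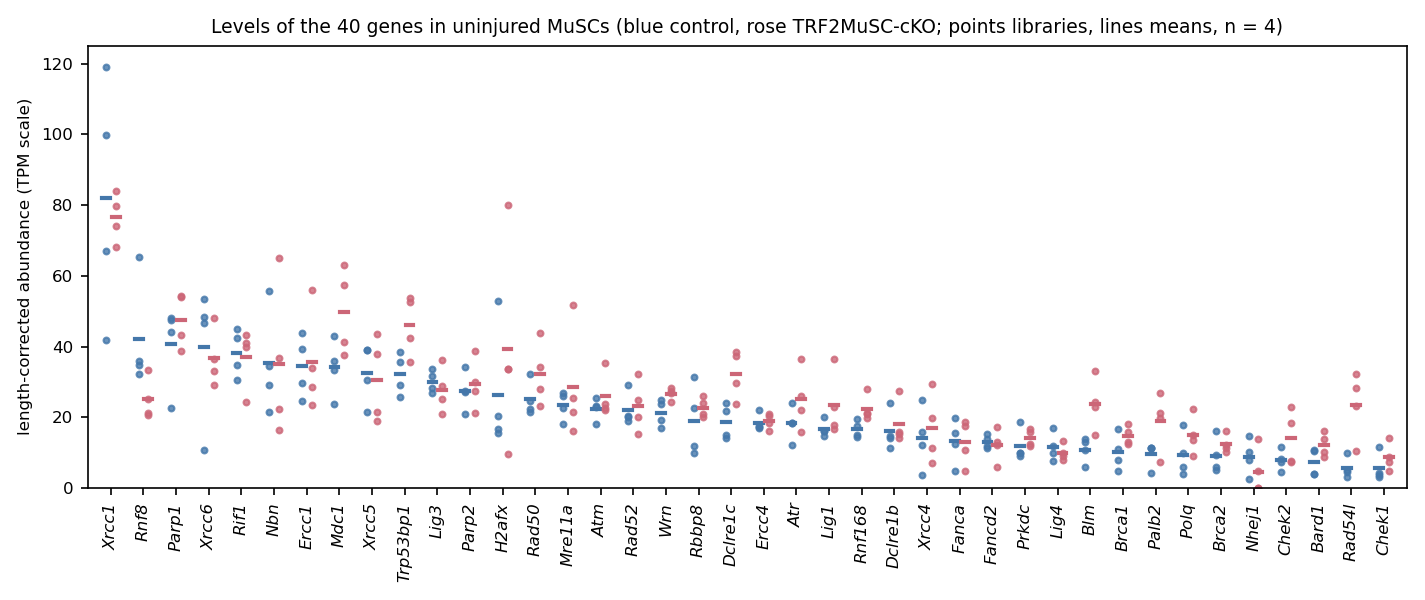
Length-corrected abundance (TPM scale) of the 40 genes in the 4 control and the 4 TRF2MuSC-cKO uninjured libraries (points, with the mean as a line), ordered by the control mean. Levels fall from 82.0 for Xrcc1 to 5.61 for Chek1, and the points of the genotypes overlap for most genes.

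In uninjured MuSCs no DNA damage gene was called as changed by TRF2 loss. A call needed an edgeR quasi-likelihood adjusted p under 0.02 and a change over 1.5-fold. Of the 40 genes 36 had enough counts to be tested, 0 were called higher and 0 lower, where 0.584% of the 14048 genes tested were called higher and 2.63% lower (82 and 370 genes). With one library left out these numbers were 40 to 86 and 214 to 488, lowest without control replicates 1, 2 and 4 and highest without control replicate 3, and limma with robust variances called 157 and 142. A count of 0 among 36 is close to that background and does not set this list apart. The 4 members not tested were Chek1, Chek2, Nhej1 and Xrcc4. At an unadjusted p under 0.05 there were 3 members (8.33%) against 19.5% of all genes, and limma with robust variances called 1, Rad54l. Their median log2 fold change was 0.05 beside 0.06 for all genes, with 21 estimates above 0 and 15 below. For 19 of the 36 genes the 95% confidence interval of the change lay within 2-fold in either direction, and for 2 it lay within 1.5-fold.

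Of the 4 signalling kinases, Atm and Atr had enough counts to be tested. Atm stood at 100, 122, 126 and 136 CPM in control and 141, 99.7, 103 and 102 CPM in TRF2MuSC-cKO libraries. These values overlap throughout, and the log2 fold change of 0.01 had an interval from -0.42 to 0.44 (adjusted p = 0.984). Atr, the kinase that answers single-stranded DNA, was 45.6, 66.6, 80.2 and 73.1 CPM in control and 97.1, 47.8, 75.9 and 66.7 CPM in knockout libraries, and its log2 fold change of 0.24 had an interval from -0.30 to 0.78. Chek1 and Chek2, which carry the signal from ATR and ATM to the cell cycle, were too low to test. Chek1 had 4.5 to 17.9 CPM in control and 5.73 to 17.7 in knockout libraries, and Chek2 had 4.47 to 10.5 and 5.73 to 16.6 CPM.

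None of the chromatin response genes was called, and Rnf8 was the one whose groups did not overlap. Rnf8, the ligase that first ubiquitylates chromatin around a break, was at 29.5, 32.4, 54.6 and 34.1 CPM in control and at 22.5, 15.6, 18.6 and 16.3 CPM in TRF2MuSC-cKO libraries. The groups did not overlap, as was the case for 1 of the 36 members (2.78%) and 11.6% of all genes. Its log2 fold change of -0.92 (SE 0.38) had an adjusted p of 0.162 and was not called. In the annotation 13.2% of the exonic bases of Rnf8 also belong to another gene on the same strand, so its counts may be shared. Trp53bp1, whose product blocks resection, had 171, 112, 142 and 137 CPM in control and 169, 128, 145 and 189 CPM in knockout libraries (log2 fold change 0.29, interval -0.13 to 0.71). Mdc1, which binds phosphorylated H2AX, gave 0.36 (-0.09 to 0.81). H2afx, the gene for H2AX itself, gave 0.34 with the wide interval of -0.76 to 1.43, since its libraries ranged from 4.16 to 37.2 CPM in the knockout.

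The estimates furthest above 0 belonged to homologous recombination. Rad54l was at 6.25, 5.40, 3.49 and 14.6 CPM in control and at 28.4, 10.4, 27.2 and 23.2 CPM in TRF2MuSC-cKO uninjured MuSCs. Only knockout replicate 2 and control replicate 4 overlapped. The fitted change was 3.22-fold (95% interval 1.49 to 6.95) from 3 to 24 counts a library, with an adjusted p of 0.0643. Blm, the helicase mutated in Bloom syndrome, had 28.6, 21.6, 11.6 and 31.2 CPM in control and 39.1, 40.5, 57.3 and 27.2 in knockout libraries (log2 fold change 0.94, SE 0.36, adjusted p = 0.126). Neither was called. For 7 of the 8 recombination genes the estimate was above 0, whereas all 5 crosslink repair genes and 3 of the 5 tested end joining genes were below it, and 0 of any role were called. Among the classical end joining genes Dclre1c, which encodes the nuclease Artemis, gave 0.62 (interval -0.05 to 1.28).

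**Figure D3:**
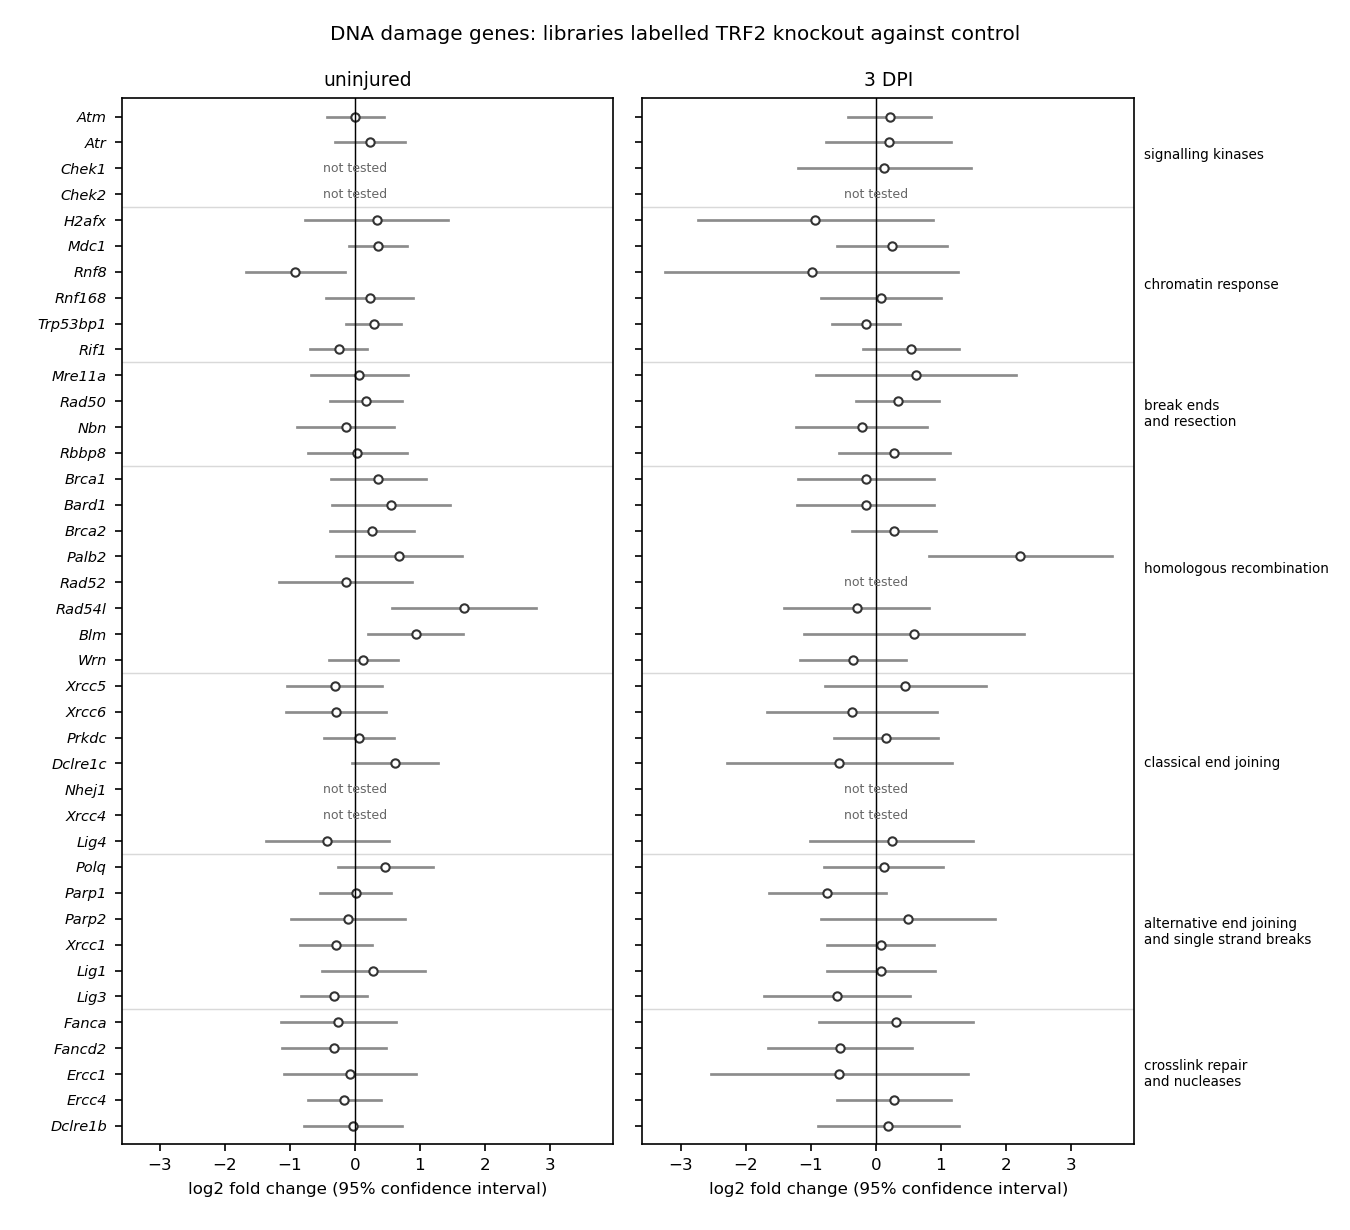
Fitted log2 fold change (points) with 95% confidence interval (bars) of libraries labelled TRF2 knockout against control for each gene, grouped by role, in uninjured muscle (left) and at 3 DPI (right), on one scale. No gene passed the call in either panel, and most of the intervals at 3 DPI are wider.

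At 3 DPI the genotype comparison (edgeR quasi-likelihood test) called 0 of 36 tested members and 0 of the 14559 genes tested (0%), and limma with robust variances, limma-voom and DESeq2 also called 0 members, while over all genes limma with robust variances called 10 higher and 18 lower and DESeq2 5 and 17. Chek2, Rad52, Nhej1 and Xrcc4 were not tested. With an unadjusted p under 0.05 there was 1 member (2.78%) against 9.36% of all genes, and the groups overlapped for all 36 where they were apart for 7.65% of all genes. The intervals were wide here: 7 of 36 lay within 2-fold, and the spread between libraries (biological coefficient of variation 0.495) was larger than in uninjured MuSCs (0.297). On data simulated for this comparison with 14592 genes tested, 23% of genes changed 4-fold and 0% of those changed 2-fold were called. The simulation gave all genes the one spread of 0.495 and changed 100 at each size, so these shares may differ in the real libraries. Atm was at 91.1, 75.9, 68.8 and 80.6 CPM in control 3 DPI and at 100, 99.2, 102 and 53.6 CPM in the libraries labelled TRF2 knockout (log2 fold change 0.21, interval -0.42 to 0.85). Trp53bp1 was 119, 102, 108 and 123 against 110, 81.9, 115 and 87.4 CPM (-0.15, interval -0.68 to 0.38). H2afx was 26.3, 45.7, 35.4 and 37.9 against 33.9, 3.46, 0 and 37.3 CPM (-0.93, interval -2.74 to 0.88), and Mdc1 83.4, 100, 121 and 118 against 130, 100, 42.1 and 219 CPM (0.25, interval -0.59 to 1.09). In both the groups overlapped, and the libraries labelled knockout had the wider range. Atr gave 0.20 (interval -0.76 to 1.16) and Chek1 0.13 (interval -1.20 to 1.46), and Chek2 stood at 10.7 to 30.1 CPM in control and 0 to 15.2 CPM in those labelled knockout.

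Palb2, which couples BRCA1 to BRCA2, had the smallest p among the members at 3 DPI. Control libraries held 24.7, 11.7, 7.87 and 14 CPM and those labelled knockout 25.7, 54.2, 152 and 24.5 CPM. The highest value came from replicate 3, the library with few genes detected. The log2 fold change was 2.22 (SE 0.65, adjusted p = 0.452) with that library and 1.31 (adjusted p = 0.255) without it, and the change was called in neither. The same library held 170 CPM of Mre11a, the nuclease of the MRN complex, against 16.1 to 19.8 CPM in the other 3, and 139 CPM of Atr against 37.3 to 53. It was also low or empty for other members: Parp1 was at 22.3 CPM in it and 112 to 151 CPM in the other 3, and Blm, Chek2, Dclre1c, Ercc1, H2afx, Nhej1, Rad52, Rnf8 and Xrcc4 had no count. By counting error alone, a count of 0 among the 687418 of this library allows up to 3 counts, or 3.72 CPM. Its chi-square against the other libraries of the group was 17.4 to 18.6 times the expectation from sampling. True levels can therefore lie above 3.72 CPM. The members next in order of p were Parp1, at 122 to 205 CPM in control and 22.3 to 151 in the libraries labelled knockout (log2 fold change -0.74, SE 0.42, adjusted p = 0.599), and Rif1, at 55.1 to 95.7 and 53.6 to 136 CPM (0.54, SE 0.34, adjusted p = 0.638). Without this library 0 members were called, and over all genes 3 were called higher and 13 lower.

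Injury of control muscle was the comparison in which DNA damage genes were called. Of 39 members tested, all but Nhej1, 5 rose (Parp1, Lig1, Rad54l, Dclre1c and H2afx) and 2 fell (Rif1 and Rnf8). These 7 members make 17.9% of those tested, against 20.2% of the 15356 genes tested overall (10.8% higher, 9.46% lower), and 12 members (30.8%) against 32.5% had an unadjusted p under 0.05. Both shares were close to the background. Their median log2 fold change was -0.04, beside 0.07 for all genes.

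Lig1, the ligase that seals Okazaki fragments in replication and long-patch repair, rose 2.99-fold (95% interval 1.96 to 4.56, adjusted p = 5.7e-05). It was at 20.5, 22.5, 20.9 and 30.2 CPM in control uninjured and 46.3, 108, 49.2 and 69.1 CPM in control 3 DPI libraries, and the lowest injured library was above the highest uninjured one. Parp1 rose 2.51-fold (1.83 to 3.45, adjusted p = 9.5e-06), from 76.8, 81.0, 34.9 and 87.7 CPM to 122, 179, 177 and 205 CPM. Again the groups were apart. Rad54l rose 3.18-fold (1.62 to 6.24, adjusted p = 0.0074), and its 4 injured libraries lay within 23.0 to 23.6 CPM, all above the 3.49 to 14.6 CPM of uninjured controls. Opposite-strand exons of a neighbour cover 15.4% of the exonic bases of Rad54l.

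Dclre1c and H2afx also rose, with larger adjusted p. Dclre1c went from 25.0, 36.0, 34.9 and 25.3 CPM to 66.4, 41.8, 103 and 35.4 CPM (2.08-fold, 1.34 to 3.22, adjusted p = 0.0090), and the highest value, from replicate 3, carried much of the call, since without that library the log2 fold change was 0.65 and the adjusted p 0.203. H2afx went from 8.93, 29.7, 9.30 and 12.7 CPM to 26.3, 45.7, 35.4 and 37.9 CPM (2.45-fold, 1.42 to 4.20, adjusted p = 0.0099). One uninjured library at 29.7 CPM overlapped the injured group. The call of H2afx was lost in 11 of 21 alternative fits, that of Rnf8 in 10 of 21, that of Rad54l in 9 of 21 and that of Dclre1c in 9 of 22, with no change of direction. Part of H2afx, 10.2% of its exonic bases, lies opposite to another gene.

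Rif1 and Rnf8 fell in the same comparison. Rif1 stood at 136, 161, 107 and 187 CPM in control uninjured and 95.7, 58.3, 62.0 and 55.1 CPM in control 3 DPI libraries (log2 fold change -1.11, SE 0.22, adjusted p = 1.2e-04), without overlap. Rnf8 went from 29.5, 32.4, 54.6 and 34.1 CPM to 12.4, 22.4, 19.7 and 9.87 CPM (-1.18, SE 0.37, adjusted p = 0.0150), also without overlap. Atm was below its uninjured levels in all 4 injured libraries, at 68.8 to 91.1 against 100 to 136 CPM, with a log2 fold change of -0.58 (SE 0.21, adjusted p = 0.0377) that was not called. Xrcc5, the larger Ku subunit, gave -1.08 (SE 0.38, adjusted p = 0.0288), likewise not called. In all, 8 of 39 members (20.5%) had groups without overlap, against 24.5% of all genes. Atr, Mdc1 and Trp53bp1 had intervals from -0.58 to 0.45, -0.47 to 0.38 and -0.68 to 0.13.

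How many members passed depended on the libraries and the scale. Leaving out one library at a time gave 3 to 7 calls: 3 without control 3 DPI replicate 3, 4 without control uninjured replicate 1 and 4 without control uninjured replicate 3. Lig1, Parp1 and Rif1 were called in each of these fits, which called 1381 to 1640 genes higher and 1197 to 1704 lower over all genes. With the second deposited table, which is corrected for transcript length, there were 3 called members (Lig1, Parp1 and Rif1). Over all genes 1088 were then called higher and 1084 lower of 17943. When all 16 libraries shared one estimate of the spread, 2 members (Lig1 and Rif1) were called, beside 861 genes higher and 734 lower of 16822. The counts over all genes thus fell as well. DESeq2 called 8, the same 7 and Atm, beside 1551 genes higher and 1565 lower. An adjusted p under 0.05 with no minimum fold passed 9, the same 7 with Atm and Xrcc5, beside 1925 and 1775. With the code of the sample descriptions as a term, a fit chosen after seeing the data in which 1 uninjured and 2 injured libraries share a code, 1 member was called (Rif1, log2 fold change -1.59, adjusted p = 0.00177). Parp1 was then at 1.21 (SE 0.40, adjusted p = 0.0420) and Lig1 at 1.06 (SE 0.53, adjusted p = 0.233), and over all genes 812 were called higher and 673 lower where 1652 and 1452 were without the term.

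**Figure D4:**
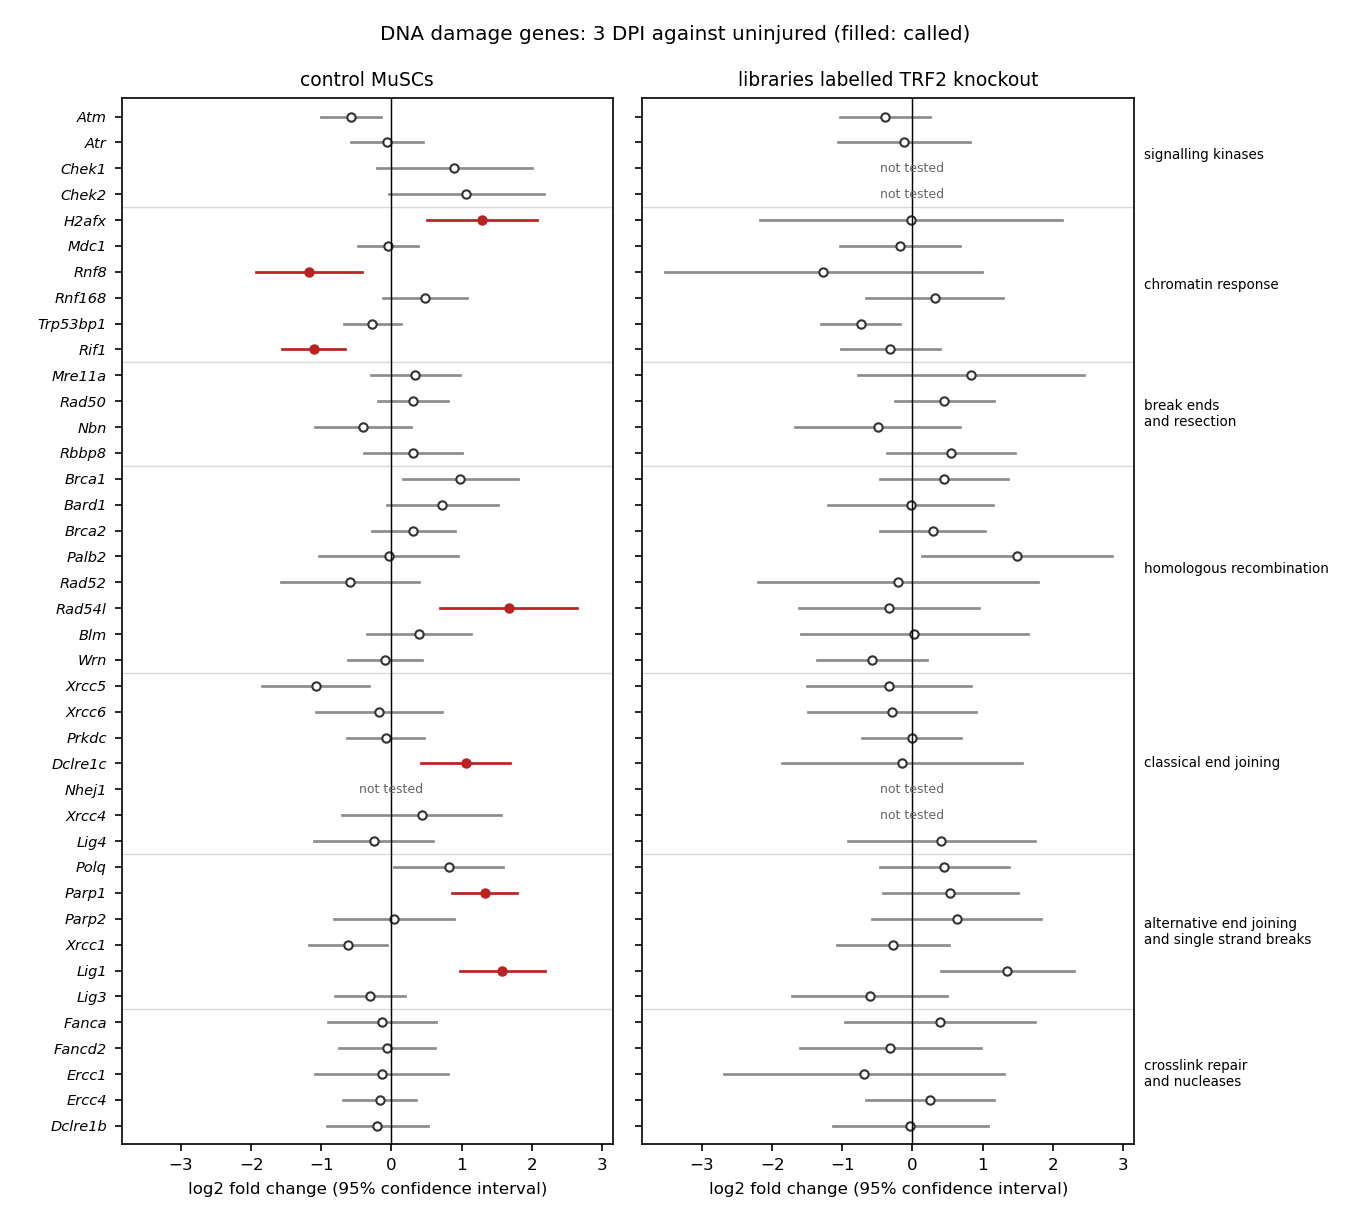
Fitted log2 fold change (points) with 95% confidence interval (bars) of 3 DPI against uninjured MuSCs for each gene in control libraries (left) and those labelled TRF2 knockout (right), filled where called. Lig1, Parp1, Rad54l, Dclre1c and H2afx rise and Rif1 and Rnf8 fall in control, and no gene is called on the right.

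In the libraries labelled TRF2 knockout, 0 of 36 tested members were called after injury, against 2.43% of the 14578 genes called higher and 1.61% lower (edgeR quasi-likelihood test). This background rested on the libraries: 354 genes were called higher and 235 lower, but 803 and 513 of 15547 without replicate 3 of the 3 DPI group, and 214 to 283 and 134 to 167 without any one of the other libraries. With the description code as a term, 15 were called higher and 22 lower. DESeq2 called 568 higher and 425 lower, and limma with robust variances 547 and 473. No member was called in any of these fits. Chek1, Chek2, Nhej1 and Xrcc4 were not tested. With an unadjusted p under 0.05 there were 3 members (8.33%), Lig1, Trp53bp1 and Palb2, against 16.4% of all genes. Lig1 was at 23.7, 41.6, 20.04 and 19.1 CPM in TRF2MuSC-cKO uninjured and 94.6, 60.0, 86.8 and 38.4 CPM in 3 DPI libraries labelled knockout. Its log2 fold change of 1.35 (SE 0.44, edgeR adjusted p = 0.106) was not called. Lig1 was called with a filter of at least 10 counts in every library, beside 445 genes higher and 294 lower of 6685. It was also called with all 16 libraries in one fit, beside 721 and 483 of 16822. Trp53bp1 was at 169, 128, 145 and 189 CPM and then 110, 81.9, 115 and 87.4 CPM, without overlap (-0.74, SE 0.26, adjusted p = 0.141). It was 1 of 2 members with groups apart (5.56%), against 14.1% of all genes. In data simulated for this comparison with 14479 genes tested, 4% of genes changed 4-fold were called. All genes there had one spread (biological coefficient of variation 0.523), and 100 were changed at each size. The share may therefore differ from the reach of the test on the real libraries.

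A gene called in control and not in the libraries labelled knockout does not show that the injury response differed, so the difference was tested by an interaction term over all 16 libraries. It called 0 of 39 members, where 3 of 16822 genes (0.0178%) were called, all lower. Without replicate 3 of the 3 DPI group labelled knockout 4 genes were called higher and 9 lower, without any one of the other libraries 0 higher and 1 or 2 lower, and limma with robust variances called 45 and 78. The unadjusted p was under 0.05 for 2 members (5.13%) against 5.74% of all genes, and limma with robust variances called 1, Rad54l. Rad54l rose with injury in control (log2 fold change 1.67) and gave -0.34 in the libraries labelled knockout, from an uninjured knockout level of 10.4 to 28.4 CPM to 8.68 to 27.7 CPM. The interaction was -1.88 (SE 0.76, adjusted p = 0.757). For Rif1 it was 0.88 (SE 0.41) and for Palb2 1.60 (SE 0.81). For Lig1, at 1.58 in control and 1.35 in the libraries labelled knockout, the interaction was -0.13 with an interval from -1.23 to 0.97. Nhej1 was the member not tested.

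**Figure D5:**
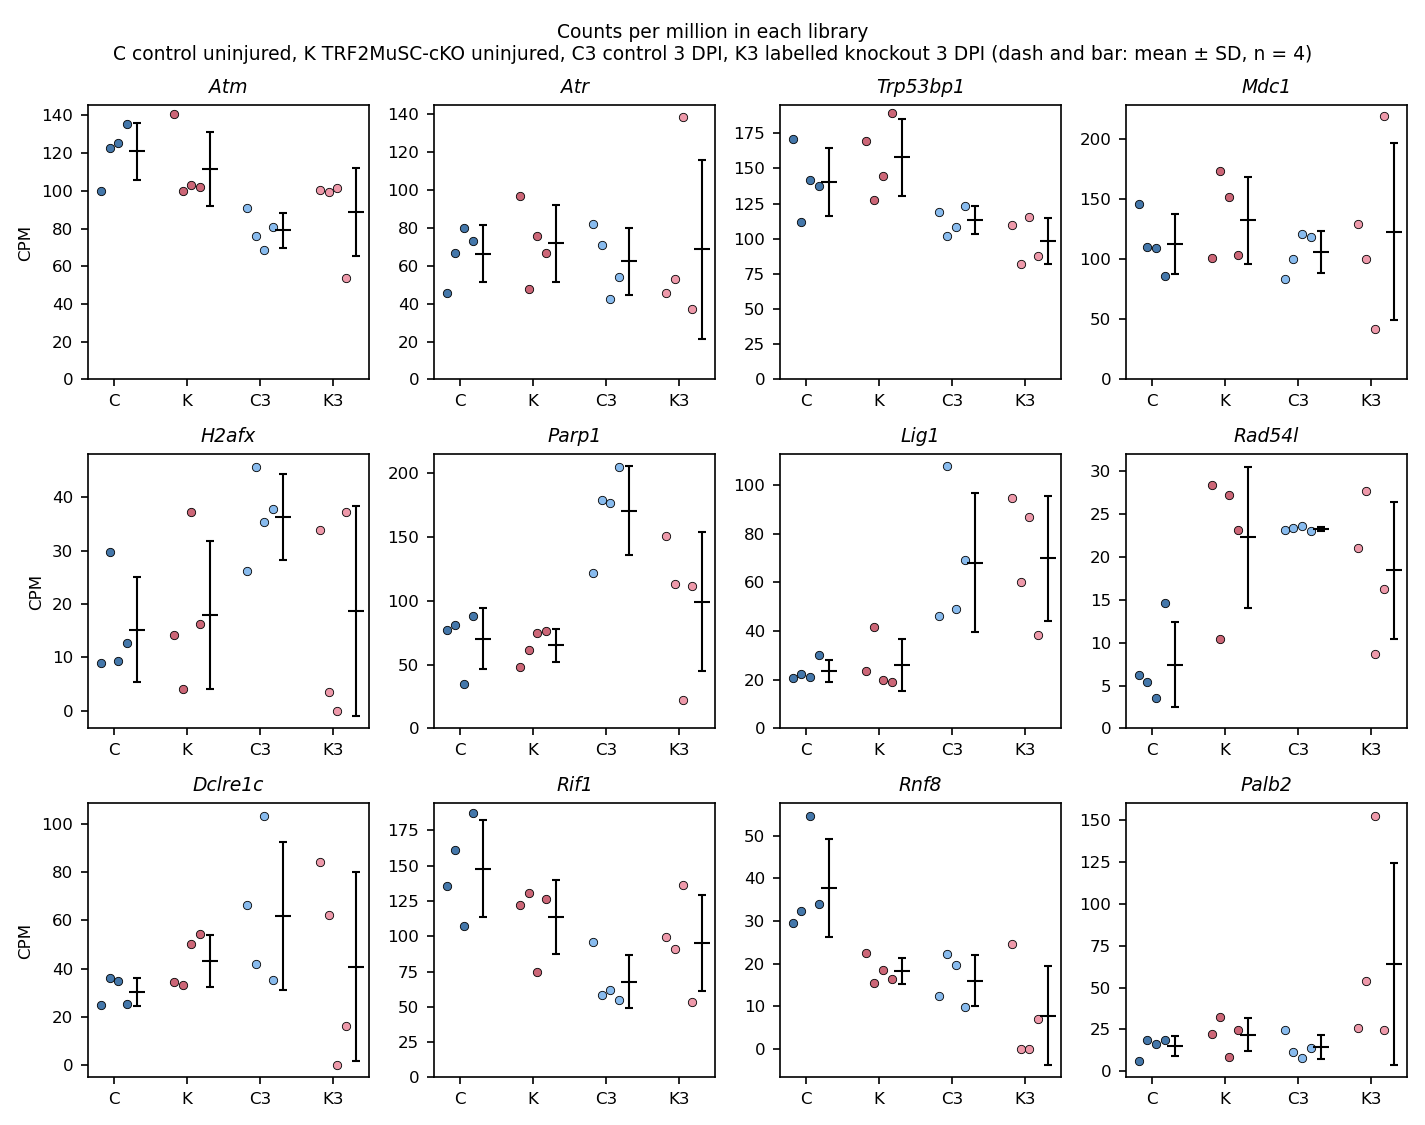
CPM of 12 of the genes in each library, with the mean and SD of each group of 4 beside the points (linear axes). The plots show the separate control groups of Parp1, Lig1, Rad54l, Rif1 and Rnf8 before and after injury, and the single high library of Palb2 and Atr at 3 DPI.

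Few of the further genes of the pathway were called in the genotype comparisons, and more were called with injury of control muscle. Of 83 other signalling and repair genes in the table, 72 were tested for TRF2 loss in uninjured MuSCs, and 1 was called higher and 1 lower (2.78%, against 3.22% of all genes tested). Rnf169, a ubiquitin reader that competes at RNF168-marked chromatin, rose from a mean of 99.7 to 201 CPM (log2 fold change 1.13, SE 0.21, adjusted p = 4.6e-04), and Smc6, of the SMC complex that resolves recombination intermediates, fell from 214 to 109 CPM (-0.84, SE 0.21, adjusted p = 0.0085). The 4 Rnf169 values were 101, 109, 113 and 76.0 CPM in control and 166, 247, 172 and 219 in knockout libraries, without overlap. Fancg, of the Fanconi anemia core complex, had the furthest estimate in this comparison at 1.32 (SE 0.44, adjusted p = 0.0727) and was not called. At 3 DPI 0 of 72 were called, and the furthest estimates were 1.55 (SE 0.67) for Faap100 and 1.27 (SE 0.64) for Nsmce2. With injury of control muscle 4 of 78 rose and 4 fell, which is 10.3% against 20.2% of all genes and 17.9% of the 39 members tested. The risers were Clspn (log2 fold change 1.42, SE 0.28), Topbp1 (0.75, SE 0.24), Brip1 (1.59, SE 0.37) and Rpa1 (1.11, SE 0.30), which serve ATR signalling or recombination at forks. The genes that fell were Rev3l (-1.31, SE 0.19) and Rev1 (-0.88, SE 0.27) of translesion synthesis, Smc6 (-0.99, SE 0.20) and Uimc1 (-0.84, SE 0.25), which recruits BRCA1 to ubiquitin. Rev3l was also the 1 of 72 (1.39%, against 4.04% of all genes) called in the knockout injury comparison (-1.58, SE 0.28, adjusted p = 0.0033), where the furthest estimate was that of the checkpoint kinase gene Wee1 (-1.68, SE 0.67, adjusted p = 0.209). The interaction called 0 of 82, with the furthest estimates at -2.10 (SE 1.01) for Xrcc3 and -1.99 (SE 1.00) for Nudt16l1.

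Calls in 2 lists of neighbouring processes were counted, and no test of the difference from other genes was made. Among 19 tested target genes of p53, 10 were called higher in TRF2MuSC-cKO uninjured MuSCs (52.6%, against 0.584% of all genes) and 0 lower, with a median log2 fold change of 1.35. Cdkn1a, the cell cycle inhibitor, rose from a mean of 104 to 492 CPM. In the same comparison 7 of 10 MuSC markers were called lower, 2 of 5 pericyte and smooth muscle markers higher (median log2 fold change 0.70), 1 of 4 tested fibro-adipogenic markers higher and 1 lower (median 0.87) and 0 of 4 Schwann markers (median 0.57, all above 0) and 0 of 6 tested immune markers (median 0.61), and their part in the result was not tested. At 3 DPI 0 of 20 p53 targets were called (median -0.04), as were 0% of all genes. With injury of control muscle 3 of 19 were called higher and 2 lower (15.8% and 10.5%, against 10.8% and 9.46% of all genes, median 0.15). In the libraries labelled knockout 0 were called higher and 5 of 19 lower (26.3%, against 1.61% of all genes, median -0.91): Trp53inp1, Cdkn1a, Eda2r, Btg2 and Phlda3. In this comparison the summed MuSC markers went from 2063 to 2938 CPM down to 491 to 680 CPM. The summed immune markers went from 103 to 176 CPM up to 1643 to 4712 CPM, and the part of both lists was not tested. The interaction called 2 of 20 p53 targets lower (median -1.11), and these were 2 of the 3 genes called in all. They were Cdkn1a at -2.40 (SE 0.32, edgeR adjusted p = 9.4e-04) and Ccng1, a cyclin induced by p53, at -2.40 (SE 0.40, adjusted p = 0.0181). Leaving out one library at a time, Cdkn1a was called in 16 of 16 fits and Ccng1 in 3, and Ccng1 was not called with the replicate block, with limma-voom or in the rescaled table. With injury of control muscle 21 of 24 S-phase and mitosis genes were called higher (87.5%, against 10.8% of all genes, median log2 fold change 1.74), and their summed level went from 526 to 568 CPM up to 1691 to 2283 CPM. In that comparison 6 of 7 tested immune markers (median 4.75), 4 of 6 fibro-adipogenic markers (median 1.61) and 3 of 6 tested myofiber markers (median 0.88) were also called higher. The summed MuSC markers went the other way, from 3394 to 5531 CPM down to 1044 to 1519 CPM. Dpt of the fibro-adipogenic list fell as well, from 188 to 323 CPM to 43.8 to 92.7 CPM. The part of all these markers was not tested. In the knockout injury comparison 2 of 23 S-phase and mitosis genes were called higher (8.70%, against 2.43% of all genes). The interaction called 0 of 24, with 22 estimates below 0 (median -0.47). In the genotype comparisons 0 of 17 were called in uninjured MuSCs (median 0.06) and 0 of 24 at 3 DPI, with 22 estimates below 0 (median -0.45).

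The called members lie at these positions (GENCODE annotation, GRCm38): Parp1 at chr1:180568924-180601254, Dclre1c at chr2:3424131-3464130, Rif1 at chr2:52072832-52122383, Rad54l at chr4:116094264-116123690 on the minus strand, Lig1 at chr7:13277283-13311433, H2afx at chr9:44334694-44336077 and Rnf8 at chr17:29614790-29644991, where no strand is named on the plus strand. Of the 40 genes 14 (35.0%) start within 1000 bases of a protein-coding gene that runs the opposite way, against 10.9% of 21951 protein-coding genes, a difference that was not tested. Rad54l is the only called member among them. Atm starts 307 bases from Npat, Rad54l 150 bases from Pomgnt1 and Palb2 56 bases from Dctn5. Such pairs are transcribed away from a shared stretch of DNA.

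The bases upstream of the start sites were searched for letters known from cell cycle promoters. Whether such letters had a part in the changes with injury was not tested. RefSeq (GRCm38.p6) gave an upstream window of 250 bases for 32 of the 40 genes. None was given for H2afx, Rif1, Rad50, Nbn, Rbbp8, Wrn, Prkdc and Fancd2, so the called members H2afx and Rif1 were not searched. E2F letters (TTTCCCGC, TTTGGCGC, TTTCGCGC or TTTGCCGC on either strand) were in 5 of the 32 windows (15.6%), against 1.91% of all 27025 windows. The 5 genes were Chek2, Mdc1, Bard1, Brca2 and Xrcc6, of which the edgeR test called none in any comparison, while limma with robust variances called Xrcc6 for injury in control. CCAAT letters were in 13 windows (40.6%, against 34.5% of all), TTTGAA or TTCGAA in 4 (12.5%, against 17.4%) and CAGCTG in 3 (9.38%, against 12.8%), each on either strand. Among the 16522 windows of protein-coding genes these 4 shares were 2.415, 36.0, 15.6 and 11.8%. A G-quadruplex pattern, 4 runs of at least 3 G with 1 to 7 bases between them on either strand, was in 3 windows (9.38%, against 16.2% of all and 19.6% of protein-coding genes). A match is a description of letters and not a bound site.

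The E2F letters of 4 of these genes are shown in capitals within 52 bases of the non-exonic upstream sequence, 5′ to 3′ on the strand of the gene, at chr5:110839809-110839860 for Chek2, chr17:35841446-35841497 for Mdc1, chr1:71103152-71103203 (minus strand) for Bard1 and chr5:150522431-150522482 for Brca2. They start 152, 16, 209 and 168 bases before the start site.
Chek2: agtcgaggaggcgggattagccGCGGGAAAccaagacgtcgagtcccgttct
Mdc1: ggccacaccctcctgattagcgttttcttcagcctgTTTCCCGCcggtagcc
Bard1: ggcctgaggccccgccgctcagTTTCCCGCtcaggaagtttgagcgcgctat
Brca2: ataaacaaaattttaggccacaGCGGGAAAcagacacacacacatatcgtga

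Of the members that rose with injury in control MuSCs, the Lig1 window lies wholly in annotated exons, and H2afx had no window. Parp1, Rad54l and Dclre1c have an upstream stretch outside annotated exons, shown in full to let their start regions be compared. They are the 250 bases at chr1:180568641-180568890 for Parp1, the 149 bases at chr4:116123691-116123839 (minus strand) for Rad54l, up to the first exon of its divergent partner, and the 250 bases at chr2:3423881-3424130 for Dclre1c. Capitals mark CCAAT, or ATTGG on the other strand, which occurs 0 times in the Parp1 window, 1 time in the Rad54l stretch and 3 times in that of Dclre1c. None of the 3 stretches holds the E2F letters.
Parp1: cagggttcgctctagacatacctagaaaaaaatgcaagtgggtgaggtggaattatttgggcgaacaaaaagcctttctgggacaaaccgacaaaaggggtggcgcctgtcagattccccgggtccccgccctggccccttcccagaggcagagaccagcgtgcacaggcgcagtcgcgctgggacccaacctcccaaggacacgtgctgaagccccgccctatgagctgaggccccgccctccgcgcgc
Rad54l: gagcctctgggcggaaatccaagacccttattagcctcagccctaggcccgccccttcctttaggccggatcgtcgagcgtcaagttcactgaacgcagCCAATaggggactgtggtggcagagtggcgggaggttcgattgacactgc
Dclre1c: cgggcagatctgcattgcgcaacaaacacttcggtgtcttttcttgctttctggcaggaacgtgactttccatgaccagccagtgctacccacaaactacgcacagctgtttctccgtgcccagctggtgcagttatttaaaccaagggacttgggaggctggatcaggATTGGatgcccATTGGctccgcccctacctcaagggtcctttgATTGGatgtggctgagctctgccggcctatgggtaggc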

How the data were processed

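MuSCs were sorted as CD45-, CD31-, CD11b- and Sca1-negative, VCAM- and α7-integrin-positive cells, and total RNA libraries were made with a stranded kit after removal of ribosomal RNA. The submitters' processing notes name Trim Galore 0.6.7, STAR 2.6.1d, Salmon 1.5.2 and the mouse build GRCm38. The authors deposited 2 tables of estimated counts from Salmon for 24411 genes. The first was used as the main table, and the second, abundances rescaled by the authors to each library's total, gave the length-corrected levels and an alternative. Whether molecular identifiers or strand entered the counting is not given in the sources used here.

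The 40 genes and all other gene lists were chosen with earlier results of these data known. Estimated counts were rounded to whole numbers. Each comparison was fitted on its own 8 libraries with edgeR 4.0.16 (quasi-likelihood, robust, TMM factors, filterByExpr with a minimum count of 10) in R 4.3.3, with Benjamini-Hochberg adjustment over all genes tested, and the interaction on all 16. A call needed an adjusted p under 0.02 and over 1.5-fold. Printed CPM were scaled over all 16 libraries by the total of the genes kept by the filter and its TMM factor, which placed the log2 difference of the printed CPM against that of the fits at -0.12 (genotype, uninjured), -0.05 (genotype, 3 DPI), -0.04 (injury, control) and 0.06 (injury, knockout). Overlap of groups was read on the scale of each fit. The genes named were Terf2, 7 fixed signalling genes, every member called, the 3 members of smallest p in each genotype comparison and in the interaction, and, from the other pathway genes, those called and the 2 of largest change. Xrcc5, Mre11a and the members named for their level, position or promoter were named after their values were seen. The alternatives used limma 3.58.1 and DESeq2 1.42.0. The fit named limma with robust variances also used robust regression, which gives outlying libraries less weight in the fold changes. Figures were drawn with matplotlib. Totals of 620506 to 1351130 counts a library limit precision, and intervals and the floor of 3 counts for a value of 0 cover counting error or library spread only as stated. The labels do not say that replicates came from separate animals, so p-values measure the spread between these libraries. No pair of replicates agreed within sampling noise (chi-square at least 2.97 times its expectation over genes with at least 10 counts in the pair). Tested on simulated data, the fit recovered 82% of genes changed 4-fold and 9% of those changed 2-fold for genotype in uninjured MuSCs (13666 genes). For injury in control it recovered 83% and 22% (15124 genes), and no sign was wrong in either. All simulations gave every gene the common spread of the comparison and changed 100 genes at each size. Their shares may therefore not hold for the real libraries.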

Additional observations from a re-analysis of the deposited data

Results flagged for a closer look

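A library far from the other 3 of its group was looked for in 16 genes and 4 groups, and 8 of the 64 groups of 4 had one by Dixon's test, where chance gives about 1 in 20. The part of chance in this number was not tested. In TRF2MuSC-cKO uninjured MuSCs, Atm was 141 CPM in replicate 1 and 99.7 to 103 in the others, and Rif1 was 74.4 CPM in replicate 3 and 122 to 131 in the others. In control uninjured MuSCs, Chek1 was 17.9 CPM in replicate 1 and 4.5 to 5.85 in the others. In control 3 DPI libraries, Chek2 was 30.1 CPM in replicate 2 against 10.7 to 10.8, and Rif1 was 95.7 CPM in replicate 1 against 55.1 to 62.0. In the 3 DPI libraries labelled knockout, Atr was 139 CPM in replicate 3 against 37.3 to 53, Chek1 was 31.0 CPM in the same replicate against 11.5 to 12.9, and Atm was 53.6 CPM in replicate 4 against 99.2 to 102.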

How the results depend on the processing

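The count of called members stayed at 0 for TRF2 loss in uninjured MuSCs and for the interaction except with limma with robust variances (1 in each, Rad54l), and at 0 in all alternatives at 3 DPI. For injury in control it was 3 in the rescaled table, 2 with all 16 libraries in one fit, 1 with the description code as a term (added after seeing the data), 8 with DESeq2, 9 at an adjusted p under 0.05 with no minimum fold, 5 to 7 in the other settings and 3 to 7 when a library was left out, and for injury in knockout 1 with at least 10 counts in every library and 1 with all 16 libraries in one fit. The cause was not tested. Over all genes, the calls for TRF2 loss in uninjured MuSCs went from 82 higher and 370 lower to 6 and 11 in the rescaled table, 12 and 70 with all 16 libraries in one fit and 176 and 212 with library size alone. Those for injury in control went from 1652 and 1452 to 1088 and 1084 in the rescaled table and 861 and 734 with all 16 libraries. Those for injury in knockout went from 354 and 235 to 174 and 109 in the rescaled table and 721 and 483 with all 16 libraries. Of 852 fold changes of single genes under alternatives, 764 kept their direction and side of the threshold, 42 were no longer past it, 6 became so and 40 changed sign. The members' median log2 fold change lay between -0.30 and 0.26 over all comparisons and settings.

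None of the values that changed sign was called. For Atm in uninjured MuSCs they were -0.078 (limma with robust variances), -0.00540 (DESeq2), -0.00576 (median-of-ratios size factors), -0.067 (no filter), -0.00229 (rescaled table), -0.079 (length trend removed), -0.086 (replicate block with the length trend removed) and -0.12 (all 16 libraries). H2afx there was -0.050 (limma-voom). At 3 DPI, limma with robust variances gave -0.16 for Atr and -0.018 for Chek1, and the libraries that share one code of unstated meaning in their descriptions, 2 a genotype, gave -0.18 for Terf2, -0.62 for Atr and -0.74 for Chek1. For injury in control, Atr was 0.11 (library size alone), 0.041 (at least 10 counts), 0.16 (length trend removed) and 0.15 (replicate block with the length trend removed). For injury in knockout, H2afx was 0.043 (library size alone), 0.080 (all 16 libraries) and 0.13 (description code as a term), and Parp1 was -0.24 with that term.

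With a library left out, the ranges were -0.15 to 0.058 (Atm) and -0.31 to 0.88 (H2afx) for TRF2 loss in uninjured MuSCs, -0.43 to 0.38 (Atr), -0.37 to 0.44 (Chek1) and -0.20 to 0.51 (Mdc1) at 3 DPI, -0.23 to 0.069 (Atr) for injury in control, and -0.55 to 0.61 (H2afx) and -0.78 to 0.30 (Dclre1c) for injury in knockout. With library size as the only scaling, the all-gene median went from 0.06 to 0.24 (TRF2 loss, uninjured) and from 0.07 to 0.23 (injury, control) in log2 units.

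Replicate numbers did not pair the samples: deviations from the group means of same-numbered libraries correlated at -0.11 to 0.11. With the replicate block 0, 0, 7, 0 and 0 members were called in the comparisons of labelled genotype (uninjured, 3 DPI), injury (control, knockout) and the interaction. Atr in the genotype comparison at 3 DPI was -0.00444, or -0.041 with the length trend removed as well.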
